A study of Dipsacus asperoides with 9 samples.

Results

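Plastids make the building blocks of carotenoids, chlorophyll side chains, tocopherols and plastoquinone, and some of these products are cut into hormones. The unigenes of this supply line, assembled transcripts that stand for genes, were followed through root development of Dipsacus asperoides, a medicinal herb. They were chosen by words in the description of their best database match, namely the names of methylerythritol phosphate (MEP) pathway intermediates, geranylgeranyl, solanesyl, phytoene, lycopene, zeaxanthin, carotene, carotenoid, tocopherol and strigolactone. These words matched 58 of the 65535 unigenes in the table. Of these, 13 were left out because their best match was in Beta, Chenopodium, Spinacia, Quercus suber or Hordeum, and 5 more because fewer than 3 of the 9 libraries reached 1 FPKM (a level scaled by transcript length and by mapped reads). The 40 that remained are the members described here. All passed the filter on low values by construction. A unigene that reached 1 FPKM in the libraries of a single stage passed through that stage, which fixes its higher level there. Likewise, a unigene under 1 FPKM in every library of a stage passed through the other stages, which favours its lower level in that stage. No genome entered the assembly, so the unigenes have no coordinates here.

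The libraries came from roots of wild-type (WT) plants, with no treatment named, in 3 biological replicates per stage. The stages are the one-leaf stage (L1), the two-leaf stage (L2) and plants grown for 7 months (M7). The sources used here do not say how many plants went into a replicate. The p values rest on the spread between replicate libraries within a stage, pooled over the 3 stages and moderated across unigenes. The stage comparisons used limma, on log2(FPKM + 1), and covered the 34925 unigenes that reached 1 FPKM in 3 or more libraries. A unigene "rose" or "fell" when its Benjamini-Hochberg adjusted p, over all tested unigenes, was under 0.05. The log2 fold change (log2FC, with its standard error, SE) is that of FPKM + 1, which understates the change of low unigenes. A differentially expressed gene (DEG) also had to change by over 2 on this scale and to exceed 30 FPKM in its highest stage mean.

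As background, the MEP pathway turns pyruvate and glyceraldehyde phosphate into isopentenyl diphosphate in the plastid, while the mevalonate (MVA) pathway does so in the cytosol. Geranylgeranyl diphosphate synthase (GGPPS) joins these units into the precursor of carotenoids and of the phytyl chain. Phytoene synthase (PSY), desaturases, isomerases, cyclases and hydroxylases then build the carotenoids. Cleavage of epoxycarotenoids by 9-cis-epoxycarotenoid dioxygenase (NCED) starts abscisic acid (ABA) synthesis, and cleavage by carotenoid cleavage dioxygenases (CCD) leads to strigolactones, which roots release into soil and which restrain shoot branching.

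The libraries differed before any member was compared. An L1 library held 26048 to 28468 unigenes that reached 1 FPKM, an L2 library 32849 to 34173 and an M7 library 13430 to 18794. Replicate 3 of L1 and replicate 1 of M7 stood apart from the other libraries of their stage. Each library was compared with the mean of the other libraries of its stage, with 1 FPKM added to both. On this scale, L1 replicate 3 was over that mean by more than 1.5 times for 11 members and under it by that factor for 11. M7 replicate 1 was under it by that factor for 17 members. The read depth behind a single FPKM value is unknown. Markers of root tissue were present in L1 and L2, but the 6 Casparian strip membrane protein unigenes, which mark the endodermis, summed to 22.2 to 38.7 FPKM for L1, 20.2 to 25.0 for L2 and 0.68 to 1.19 for M7 libraries, and 3 of the 6 were listed at 0 in every M7 library. The whole root list of 19 unigenes summed to 184 to 221 FPKM for L1, 256 to 266 for L2 and 171.7 to 271 for M7. By unigene, 1 of the 19 rose and 11 fell in M7 against L1, and 1 rose and 12 fell in M7 against L2, with median log2 fold changes of -1.11 and -1.10. Of all tested unigenes, 9.37% rose and 35.1% fell against L1, and 7.71% and 52.6% did so against L2. Their medians were -0.48 and -1.07. In bulk root tissue, fewer cells of a type and less RNA per cell cannot be told apart, and the part that root makeup has in the results was not tested.

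The members fell into 9 roles and 21 enzyme groups. The description of 15 of the 40 names the chloroplast or chromoplast, and most of the rest were placed in plastid pathways by enzyme name only. CCD1 and D14-like proteins are not known as plastid enzymes, and 5 subunits of Rab geranylgeranyl transferase, which attaches geranylgeranyl to proteins in the cytosol, were caught by the word alone. The heat map of all members shows the main pattern. The strigolactone and NCED unigenes were high in both seedling stages and near 0 or low in M7, while a geranylgeranyl reductase was the brightest member of M7.

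**Figure D1:**
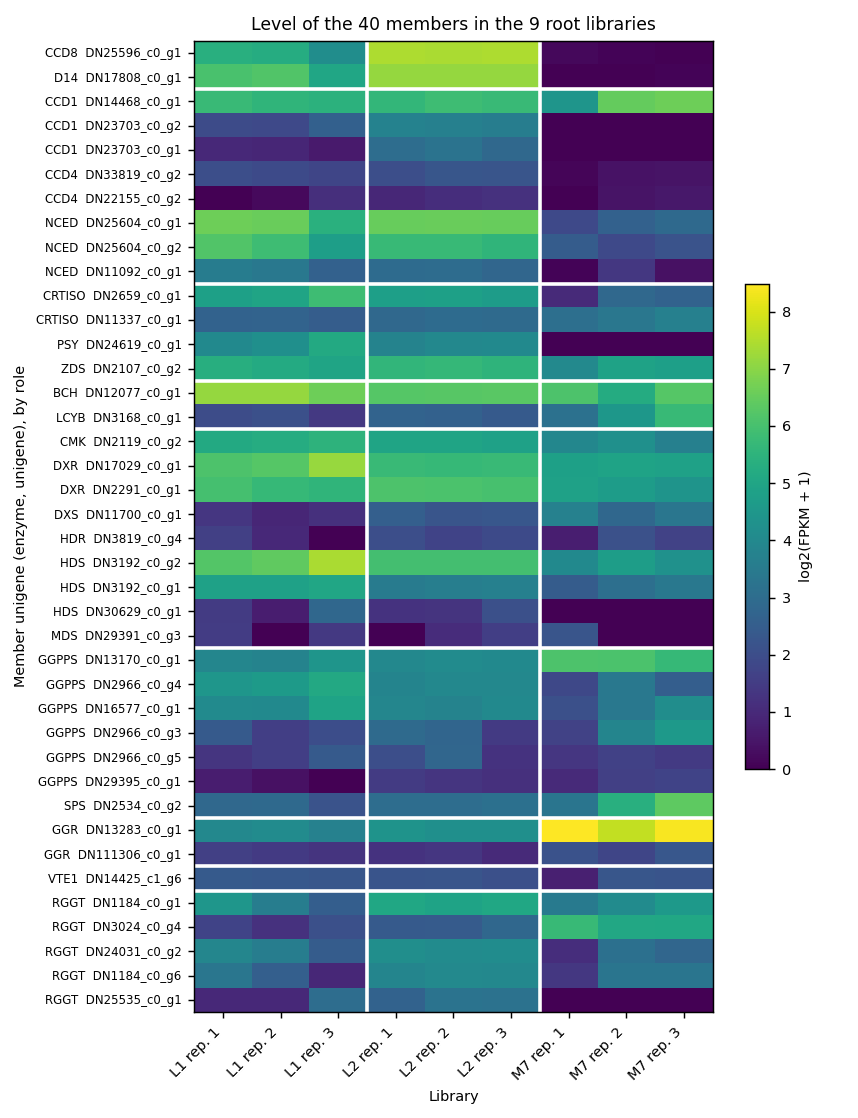
Level of each of the 40 members (rows, by role) in the 9 libraries (columns), as log2(FPKM + 1) on a colour scale from 0. White lines separate the roles and the stages. CCD8 and D14 are bright in L2 and near 0 in M7, and the GGR unigene TRINITY_DN13283_c0_g1 is the brightest member in M7.

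Most members that changed did so between the seedling stages and M7. In M7 against L1, 9 of 40 members rose and 19 fell, where 9.37% and 35.1% of all tested unigenes did so. In M7 against L2, 7 rose and 19 fell, where the table gave 7.71% and 52.6%. In L2 against L1, 8 rose and 1 fell, where the table gave 26.1% and 14.8%. In percent of the members, these are 22.5% and 47.5%, 17.5% and 47.5%, and 20% and 2.5%. In M7, the shares of members that rose were above those of all unigenes against both stages, while the share that fell was above it against L1 and below it against L2. In L2 against L1, both shares were below those of all unigenes.

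The dropped match species make up part of this background, since 89.1% of their tested unigenes were under 0.1 FPKM in every M7 library. Without them, 10.5% of unigenes rose and 32.3% fell in M7 against L1, 8.58% and 50.2% did so against L2, and 24.7% and 10.7% did so in L2 against L1. Among the members, 6 of 40 (15%) were under 0.1 FPKM in every M7 library, against 28.3% of tested unigenes without the dropped species and 36.1% of all. The median log2 fold change of the members was -0.90 in M7 against L1 and -0.91 against L2, and 0.32 in L2 against L1. Over all tested unigenes it was -0.48, -1.07 and 0.32.

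By the DEG thresholds, 3 members rose and 6 fell in M7 against L1, where 1.41% and 3.73% of tested unigenes did. Against L2, 2 rose and 5 fell, where 1.01% and 4.14% did. In L2 against L1, 1 rose and none fell, where 0.868% and 0.372% did. In all, 9 members were a DEG in at least 1 comparison, 31 were called in at least 1 comparison and 9 in none. The comparisons of M7 share its libraries: 17 members fell against both seedling stages and 7 rose against both. Of all tested unigenes, 35.1% fell against L1 and 52.6% against L2, and 9.37% and 7.71% rose. Counts over several comparisons were not made for all tested unigenes, so those of the members cannot be set against the table.

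Scaling and the 2 libraries that stood apart moved these counts. With median ratio rescaling, 9 members rose and 17 fell in M7 against L1, 8 and 17 did so against L2, and 6 and 2 did so in L2 against L1. Of the 34925 tested unigenes, 4052 and 12279, 3700 and 17409, and 8931 and 5525 did so with it. With quantile normalization the numbers were 12 and 15, 12 and 13, and 6 and 3. Of all tested unigenes, 7694 and 8690, 7582 and 8771, and 7390 and 7169 were then called. The share of members that fell in M7 against L2 was then above that of all unigenes. Quantile normalization put the median of all unigenes at 0.17 in M7 against L1, 0.05 in M7 against L2 and -0.04 in L2 against L1, and median ratio rescaling put it at -0.38, -0.90 and 0.22. Relative to the median of all unigenes, the members' median in M7 against L1 was -0.42 as deposited, -0.41 with median ratio rescaling and -0.36 with quantile normalization. In M7 against L2 it was 0.16, 0.32 and -0.26, so its sign depended on the scaling. Without L1 replicate 3 and M7 replicate 1, 10 rose and 20 fell in M7 against L1, 10 and 22 did so against L2, and 12 and 3 did so in L2 against L1. Of all tested unigenes, 4217 and 13134, 4090 and 18726, and 9955 and 6285 were called in that fit. The shares of members that fell in M7 against L2 and that rose in L2 against L1 were then slightly above those of all unigenes. No called member changed direction under any scaling tried.

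**Figure D2:**
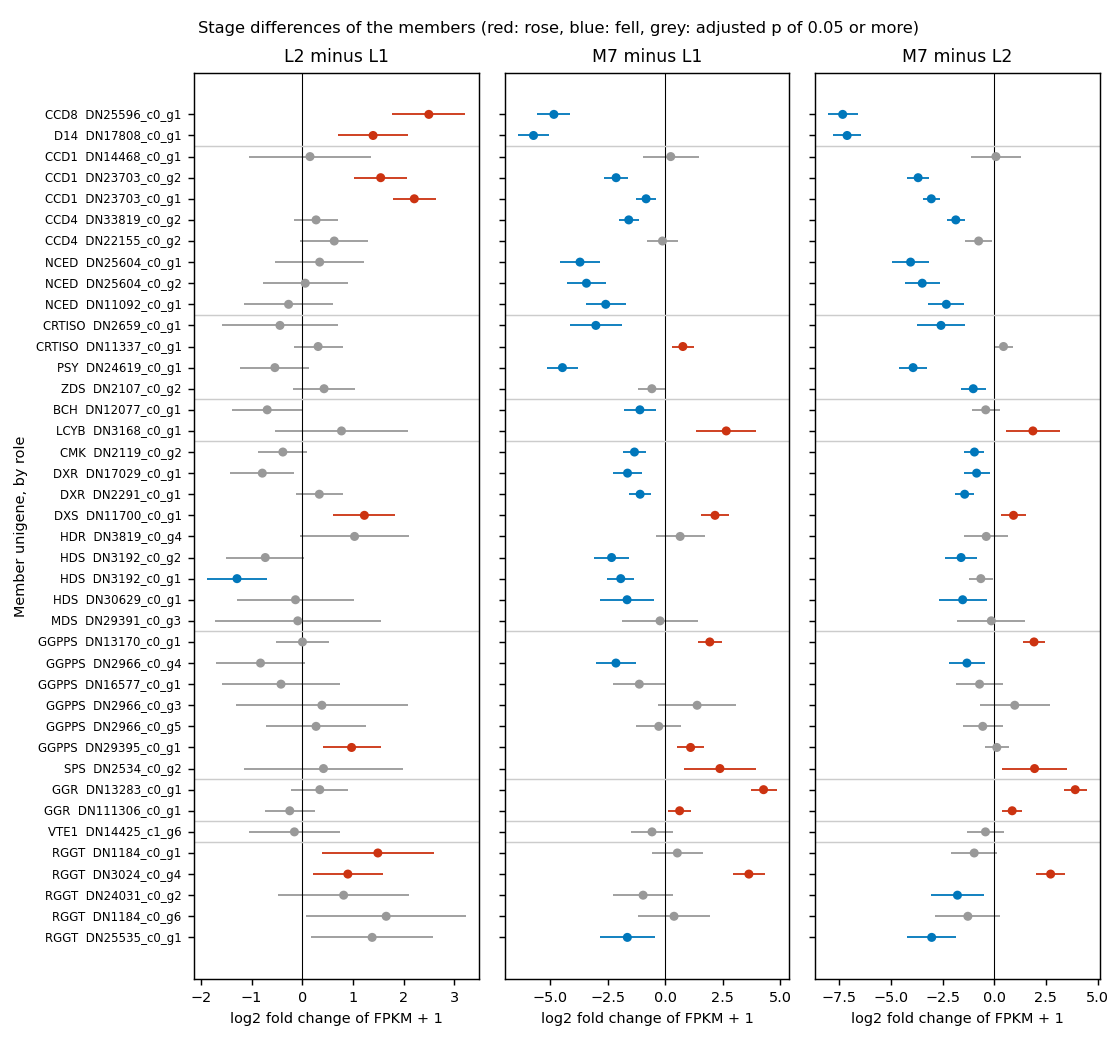
Differences of log2(FPKM + 1) between stages for the 40 members, with 95% confidence intervals from limma, with L2 minus L1 in the left panel and M7 minus each seedling stage in the others (each panel has its own horizontal scale). Red points rose, blue points fell and grey points had an adjusted p of 0.05 or more. The largest falls are those of D14 and CCD8 in the M7 panels and the largest rise is that of the GGR unigene TRINITY_DN13283_c0_g1.

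The strigolactone members had the largest falls of all members in M7. CCD8 (TRINITY_DN25596_c0_g1) cleaves a carotenoid-derived intermediate into carlactone, the precursor of strigolactones. It had 40.2, 37.1 and 17.1 FPKM in L1, 174, 168 and 172 in L2, and 0.13, 0.07 and 0 in M7. The 3 stages did not overlap, and every L2 library was above every other library. The log2FC was -4.84, SE 0.31, adjusted p = 1.12e-05 in M7 against L1, -7.34, SE 0.31, adjusted p = 7.23e-07 against L2 and 2.50, SE 0.31, adjusted p = 0.000233 in L2 against L1. The lowest L1 value was that of replicate 3.

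The D14-like unigene (TRINITY_DN17808_c0_g1) belongs to a family of hydrolases that holds the strigolactone receptor and its relatives, and its description does not tell them apart. It had 64.9, 72 and 31.7 FPKM in L1, 142, 139.7 and 141 in L2, and 0, 0 and 0.06 in M7. As for CCD8, the stages did not overlap and replicate 3 was the lowest of L1. D14 rose in L2 against L1 (log2FC 1.40, SE 0.30, adjusted p = 0.00558) and fell in M7 against both L1 (-5.73, SE 0.30, adjusted p = 5.34e-06) and L2 (-7.12, SE 0.30, adjusted p = 7.11e-07). These calls held under each alternative tried.

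Other strigolactone genes were taken from a list of 14 unigenes whose descriptions lack the word. In L2 against L1, 5 rose and 1 fell, beside 26.1% and 14.8% of all tested unigenes. In M7 against L1, 1 rose and 5 fell, the falls being near the 35.1% of all tested, and in M7 against L2, 1 rose and 12 fell, beside 52.6% that fell in the table. The list has limits, because 3 of the 14 are AGD14 proteins of vesicle transport, caught by the letters of D14. The 4 unigenes described as CYP711A1 cytochromes, the MAX1 enzyme that oxidises carlactone, were at 0 or, in 1 library, 0.16 FPKM in L1, and at 0 in every M7 library. In L2, the highest of them (TRINITY_DN14156_c0_g1) had 12, 10.6 and 10.6 FPKM. All 4 were called as rising in L2 against L1 and falling in M7 against L2, and they are part of the counts above. They passed the filter through their L2 libraries alone, so these calls were fixed by it. Presence in L2 alone was common in the table, since 5246 tested unigenes (15% of all tested) had at least 1 FPKM in every L2 library and under 0.5 in all others. Of those, 26.7% matched a dropped species and 47.4% had no description, while none of the 40 members had this pattern. The 7 SMAX1-like unigenes, named for the repressors that strigolactone or related signalling removes, were split: 6 fell in M7 against L2, and in M7 against L1 4 fell and 1 rose.

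**Figure D3:**
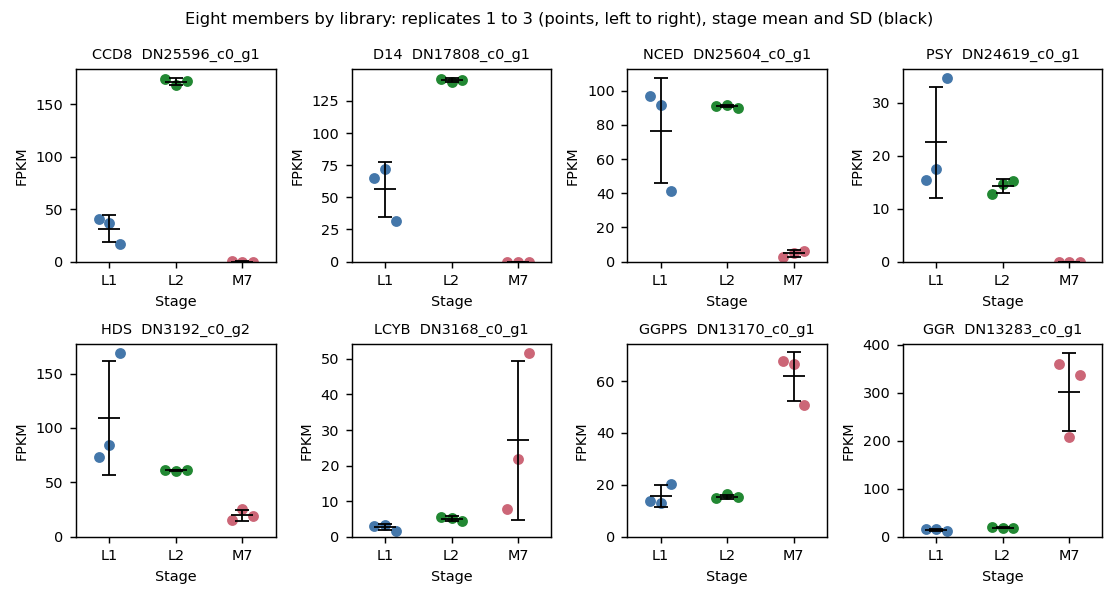
FPKM of 8 members in the 3 replicates of each stage (points, replicates 1 to 3 from left to right), with the stage mean and SD in black, on axes that start at 0. CCD8 and D14 have their highest values in L2, NCED, PSY and HDS are low in M7, and LCYB, GGPPS and GGR are highest in M7, where the LCYB libraries spread widely.

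NCED, the dioxygenase that makes the ABA precursor xanthoxin, was present as 3 unigenes that all fell in M7 against both seedling stages. The NCED1 unigene TRINITY_DN25604_c0_g1 had 96.7, 91.7 and 41.1 FPKM in L1, 91.3, 91.7 and 90.1 in L2, and 2.7, 5.23 and 6.44 in M7. Its M7 libraries lay below every seedling library, by 16-fold in the mean against L1 and 19-fold against L2 (log2FC -3.71, SE 0.38, adjusted p = 9.81e-05, and -4.05, SE 0.38, adjusted p = 3.36e-05). L2 and L1 were not separated, and the L1 spread came from replicate 3, the lowest library.

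TRINITY_DN25604_c0_g2 shares its assembly cluster with that unigene, so both may be parts of 1 gene, and reads could be split between them. It had 71.5, 57 and 26.2 FPKM in L1, 51.8, 51.1 and 45.9 in L2, and 4.59, 2.63 and 3.53 in M7 (log2FC -3.43, SE 0.36, adjusted p = 0.000117 in M7 against L1). NCED5 (TRINITY_DN11092_c0_g1) was lower throughout and had 10.8, 9.51 and 5.15 FPKM in L1, 6.87, 6.95 and 5.97 in L2, and 0.05, 1.57 and 0.3 in M7. It fell by 2.59 on the log2 scale in M7 against L1 (adjusted p = 0.000682). Summed over the 3 unigenes, NCED came to 137 ± 56.5 FPKM for L1, 147 ± 4.55 for L2 and 9.01 ± 1.51 for M7 (SD, n = 3).

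Genes of ABA synthesis after cleavage and of ABA breakdown came from a list of 17 unigenes. The list also holds a neoxanthin synthase and violaxanthin de-epoxidases, which act on xanthophylls before cleavage. None of these was called in any comparison, and they are part of the counts below. In M7 against L1, none rose and 8 fell, where 9.37% and 35.1% of all tested unigenes did so. In M7 against L2, 1 rose and 11 fell, beside 7.71% and 52.6% of all tested. In L2 against L1, 6 rose and 1 fell, beside 26.1% and 14.8%. The unigenes of ABA 8'-hydroxylase, the enzyme that degrades ABA, were split. The highest unigene of the list (TRINITY_DN335_c0_g1, CYP707A2-like) had 181, 146 and 73.2 FPKM in L1, 102, 108 and 94.8 in L2, and 0.11, 0.92 and 0.43 in M7 (log2FC -6.44, SE 0.36, adjusted p = 6.39e-06 in M7 against L1). Of the 5 hydroxylase unigenes, 3 fell in M7 against L1, and 2 did not pass the test. The 1 riser of the list against L2 was also a hydroxylase, TRINITY_DN2459_c0_g1, which had 6.61, 5.76 and 8.2 FPKM in L1, 5.77, 4.32 and 5.54 in L2, and 7.34, 13 and 16.5 in M7 (log2FC 1.04, SE 0.30, adjusted p = 0.0163 in M7 against L2, and 0.70, SE 0.30, adjusted p = 0.094 against L1). Molybdenum cofactor sulfurase, which activates the last oxidase of ABA synthesis, had 7 unigenes, and all of them fell in M7 against L2, while 3 fell in M7 against L1. Of these 7, 4 reached 1 FPKM only in L2 and passed the filter through L2 alone. That fixed their rises in L2 against L1 and their falls in M7 against L2. The xanthoxin dehydrogenase unigene TRINITY_DN26864_c0_g2 reached 1 FPKM only in L1, which likewise fixed its falls. Of the list, 3 unigenes, all sulfurases, were at 0 in every L1 library, and 6 unigenes were at 0 in every M7 library.

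The other cleavage dioxygenases had no common pattern. CCD1 cuts several carotenoids to volatile compounds. The highest unigene (TRINITY_DN14468_c0_g1) had 53, 46.2 and 43.3 FPKM in L1, 48.6, 56.7 and 53.1 in L2, and 20.3, 87.5 and 96.5 in M7. With all libraries no comparison called it, and M7 replicate 1 was the lowest of the 9 libraries while the other M7 libraries were the highest. The difference of M7 from L1 was 0.23 (95% interval -0.97 to 1.44). Without M7 replicate 1 it passed the test, with a log2FC of 0.94 (adjusted p = 0.00148) in M7 against L1 and 0.79 (adjusted p = 0.00258) against L2.

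Another CCD1 cluster had its highest values in L2. TRINITY_DN23703_c0_g2 had 2.84, 2.7 and 5.01 FPKM in L1, 12.6, 12 and 11.1 in L2, and 0 in every M7 library, and TRINITY_DN23703_c0_g1, of the same cluster, had 0.99, 0.87 and 0.53 FPKM in L1, 7.11, 8.45 and 6.35 in L2, and 0 in every M7 library. Both rose in L2 against L1 (log2FC 1.55, SE 0.23, adjusted p = 0.000645, and 2.21, SE 0.18, adjusted p = 1.7e-05) and fell in M7 against both stages. The lower one, TRINITY_DN23703_c0_g1, reached 1 FPKM only in L2 and passed the filter through it. That fixed its rise in L2 against L1 and its fall in M7 against L2. The fall of the lower one in M7 against L1 (-0.84, adjusted p = 0.00575) was lost with quantile normalization (adjusted p = 0.2) and with a pseudocount of 5 (adjusted p = 0.0997). CCD4, which degrades carotenoids in plastids, had a unigene (TRINITY_DN33819_c0_g2) at 0.08 to 0.35 FPKM in M7, against 2.4 to 3.87 in seedling libraries, a fall in M7 against both stages. With quantile normalization both calls were lost (adjusted p = 0.227 and 0.527). The second CCD4 unigene was under 1.3 FPKM in every library and was not called.

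In the core of carotenoid synthesis, PSY, the enzyme that commits geranylgeranyl diphosphate to carotenoids, changed most. The only PSY member (TRINITY_DN24619_c0_g1) had 15.4, 17.6 and 34.6 FPKM in L1, 12.8, 14.7 and 15.3 in L2, and 0 in every M7 library. Every seedling library was at 12.8 FPKM or more, and L1 replicate 3 was the highest. It fell in M7 against L1 (log2FC -4.47, SE 0.30, adjusted p = 1.26e-05) and against L2 (-3.93, SE 0.30, adjusted p = 8.82e-06). L2 did not differ from L1 by the test (-0.54, SE 0.30, adjusted p = 0.191).

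The next steps changed less. Zeta-carotene desaturase (ZDS, TRINITY_DN2107_c0_g2) had 38.6, 35.9 and 29.8 FPKM in L1, 46.5, 49.7 and 44.5 in L2, and 15, 28.9 and 26.8 in M7. It fell in M7 against L2 (log2FC -1.02, SE 0.27, adjusted p = 0.0107) and not by the test against L1 (-0.59, adjusted p = 0.114). Carotenoid isomerase (CRTISO) turns the product of the desaturases into all-trans lycopene and was present as 2 unigenes that moved in opposite directions. TRINITY_DN2659_c0_g1 had 27.2, 30.4 and 56.2 FPKM in L1, 26.6, 27.3 and 25 in L2, and 1.03, 6.35 and 5.38 in M7, a fall in M7 against both stages (log2FC -3.02, SE 0.50, adjusted p = 0.00127 against L1). TRINITY_DN11337_c0_g1 had 5.31, 5.46 and 4.73 FPKM in L1, 6.36, 6.89 and 6.7 in L2, and 7.5, 9.25 and 12 in M7 and rose in M7 against L1 (0.76, SE 0.21, adjusted p = 0.0176), a call that was lost without M7 replicate 3 (adjusted p = 0.0555).

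Lycopene beta-cyclase (LCYB), which closes the rings of beta-carotene, gave the largest rise in carotenoid synthesis. Its unigene TRINITY_DN3168_c0_g1 had 2.94, 3.18 and 1.64 FPKM in L1, 5.57, 5.21 and 4.32 in L2, and 7.89, 21.8 and 51.6 in M7. The M7 libraries lay above all seedling libraries but spread from 7.89 to 51.6 FPKM. The log2FC was 2.65, SE 0.57, adjusted p = 0.00529 in M7 against L1 and 1.87, SE 0.57, adjusted p = 0.0202 against L2. The call against L2 was lost without any 1 L2 library (adjusted p of 0.0511 to 0.0662). Beta-carotene hydroxylase (BCH), the first step to xanthophylls, had the highest L1 mean in FPKM among the unigenes of carotenoid synthesis. TRINITY_DN12077_c0_g1 had 141, 141 and 96.5 FPKM in L1, 74.7, 77.2 and 78 in L2, and 69.1, 36.4 and 74.6 in M7. It fell in M7 against L1 (log2FC -1.11, SE 0.30, adjusted p = 0.0161), and that call was lost without L1 replicate 1 or 2 (adjusted p = 0.0567 and 0.0601) and with median ratio rescaling (adjusted p = 0.114).

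The MEP pathway had 9 member unigenes of 6 enzymes. In M7 against L1, 1 rose, 6 fell and 2 did not pass the test, where 35.1% of all tested unigenes fell, with a median log2 fold change of -1.34, against -0.48 over all tested. In M7 against L2, 1 rose and 5 fell, a share near the 52.6% of all tested that fell, with a median of -0.85 against -1.07. In L2 against L1, 1 rose and 1 fell, beside 26.1% and 14.8% of all tested. The summed FPKM of the 9 was 332 ± 95.7 for L1, 230.03 ± 2.29 for L2 and 107 ± 7.81 for M7 (SD, n = 3).

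All 3 HDS and both DXR unigenes, which carry most of this sum, fell in M7 against L1, and all but 1 of them against L2. Hydroxymethylbutenyl diphosphate synthase (HDS) makes the last intermediate before isopentenyl diphosphate. Its unigene TRINITY_DN3192_c0_g2 had 73.7, 83.9 and 169 FPKM in L1, 61.1, 60.3 and 61.1 in L2, and 15.2, 25.3 and 18.7 in M7. It was a DEG in M7 against L1 (log2FC -2.33, SE 0.33, adjusted p = 0.000582) and fell against L2 (-1.60, SE 0.33, adjusted p = 0.00329), with no overlap. TRINITY_DN3192_c0_g1, of the same cluster, had 28, 28 and 31.4 FPKM in L1, 10.5, 11.5 and 12.1 in L2, and 4.49, 7.51 and 9.43 in M7. It was the only member to fall in L2 against L1 (log2FC -1.29, SE 0.26, adjusted p = 0.00354). It fell in M7 against L1 (-1.94, SE 0.26, adjusted p = 0.000378) but did not pass the test against L2 (-0.65, SE 0.26, adjusted p = 0.0563). Another HDS unigene (TRINITY_DN30629_c0_g1) was at 0 in every M7 library, against 0.59 to 6.15 FPKM in seedling libraries, and its falls did not hold. The call against L1 was lost without L1 replicate 1 or any 1 M7 library (adjusted p of 0.0533 to 0.0631), and that against L2 without any 1 L2 or M7 library (adjusted p of 0.0517 to 0.102).

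Deoxyxylulose phosphate reductoisomerase (DXR) makes methylerythritol phosphate, the first committed intermediate. TRINITY_DN17029_c0_g1 had 69.2, 75.2 and 142 FPKM in L1, 52.8, 50.2 and 53.1 in L2, and 27.6, 29.5 and 27.9 in M7, and TRINITY_DN2291_c0_g1 had 62.5, 50.4 and 46 FPKM in L1, 68.3, 67.5 and 64 in L2, and 28, 24.9 and 19.9 in M7. Both fell in M7 against L1 (log2FC -1.64, SE 0.28, adjusted p = 0.00142, and -1.10, SE 0.20, adjusted p = 0.0025) and against L2. For the first, the call against L2 was lost without any 1 L2 library or M7 replicate 3 (adjusted p of 0.0594 to 0.0681) and with median ratio rescaling or quantile normalization (adjusted p = 0.319 and 0.274). For the second, the call against L1 was lost with median ratio rescaling (adjusted p = 0.0557). Their L1 libraries differed in opposite ways, with replicate 3 the highest for the first and the lowest for the second. The kinase CMK (TRINITY_DN2119_c0_g2) was at 11.9 to 18.2 FPKM in M7, against 27.8 to 44.0 in seedling libraries. It fell in M7 against L1 and L2 (log2FC -1.34, adjusted p = 0.000967, and -0.96, adjusted p = 0.00433), the second call being lost with median ratio rescaling and with quantile normalization (adjusted p = 0.115 and 0.384).

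Deoxyxylulose phosphate synthase (DXS), the entry enzyme of the pathway, had 1 member unigene, which moved the other way. TRINITY_DN11700_c0_g1 had 1.54, 0.88 and 1.27 FPKM in L1, 4.9, 3.71 and 3.98 in L2, and 12.2, 6.18 and 9.12 in M7. The stages did not overlap. It rose in L2 against L1 (log2FC 1.22, SE 0.27, adjusted p = 0.00581), in M7 against L1 (2.16, SE 0.27, adjusted p = 0.000262) and in M7 against L2 (0.93, SE 0.27, adjusted p = 0.0156), the last lost without L2 replicate 2 (adjusted p = 0.0559). The rise in L2 was also lost with median ratio rescaling and with quantile normalization (adjusted p = 0.0562 and 0.107). Its level stayed low beside HDS and DXR. Of the DXS unigenes under the filter, TRINITY_DN109743_c0_g1 had 3.85, 4.06 and 0.63 FPKM in L1 and 0 in every L2 and M7 library. TRINITY_DN104829_c0_g1 had 15.45 FPKM in M7 replicate 1 and 0 in every other library. Neither was tested. MDS and HDR, 1 unigene each, were at 0 to 3.69 FPKM and were not called. With quantile normalization HDR rose in M7 against L1 and L2 (log2FC 1.58 and 1.13, adjusted p = 0.00205 and 0.0113). The paper lists DaMDS among terpenoid backbone DEGs with higher expression as roots developed. The table holds a part of the assembly, so other MDS or HDR transcripts may be missing from it.

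**Figure D4:**
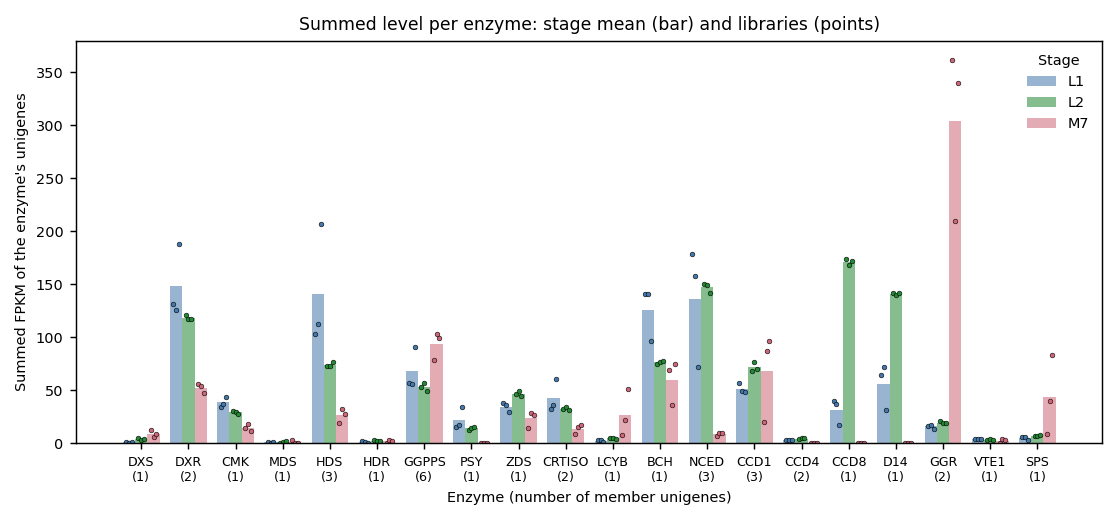
Summed FPKM of the member unigenes of each enzyme (number of unigenes in brackets): bars give the mean of the 3 libraries of a stage and points the libraries. NCED, CCD8 and D14 are low in M7, DXR and HDS are lowest in M7, and GGR averages 16.1 ± 2.09 FPKM for L1, 19.7 ± 1.01 for L2 and 304 ± 81.9 for M7 (SD, n = 3).

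Geranylgeranyl reductase (GGR) turns geranylgeranyl diphosphate into the phytyl chain of chlorophyll and tocopherol, and it gave the largest rise among members. TRINITY_DN13283_c0_g1 had 14.8, 15.9 and 12.3 FPKM in L1, 19.5, 17.8 and 17.9 in L2, and 358, 208 and 336 in M7. Its M7 libraries were all above 200 FPKM and the seedling libraries all below 20. The mean was 21-fold higher in M7 than in L1 and 16.3-fold higher than in L2 (log2FC 4.27, SE 0.24, adjusted p = 7.17e-06, and 3.92, SE 0.24, adjusted p = 2.97e-06). The second GGR unigene (TRINITY_DN111306_c0_g1) was at 2.43 to 3.91 FPKM in M7 and 1 to 2.06 in seedling libraries. It rose against both stages, but the call against L1 was lost without any 1 library but M7 replicate 2 (adjusted p of 0.0505 to 0.132).

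The green tissue markers were uneven. The list of 23 photosynthesis unigenes summed to 178 to 211 FPKM for L1, 62.3 to 66.7 for L2 and 1374 to 3275 for M7 libraries. Most of the M7 sum came from 1 chlorophyll a-b binding protein unigene, and the other 22 summed to 165 to 199 for L1, 44.7 to 45.6 for L2 and 178 to 362 for M7. Of the 23, 3 rose and 10 fell in M7 against L1, beside 9.37% and 35.1% of all tested unigenes. Against L2, 11 rose and 3 fell, beside 7.71% and 52.6%. A Rubisco small chain and another chlorophyll a-b binding protein of the list were at 0 in every M7 library. The part that green tissue has in the GGR rise was not tested.

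Tocopherol and plastoquinone genes were few. Tocopherol cyclase (VTE1, TRINITY_DN14425_c1_g6) had 4.24, 4.02 and 3.8 FPKM in L1, 3.57, 3.75 and 3.21 in L2, and 0.68, 3.83 and 3.66 in M7, and was not called. Only M7 replicate 1 was low. With quantile normalization VTE1 rose in M7 against L2 (log2FC 1.02, adjusted p = 0.00401), where the log2FC as deposited was -0.42. In a list of 5 related unigenes without the word, 2 rose and 1 fell in M7 against L1, beside 9.37% and 35.1% of all tested unigenes. Against L2, 2 rose and 2 fell, beside 7.71% and 52.6%. The highest of them, a phytol kinase (TRINITY_DN13043_c1_g1), which recycles phytol, had 36.8, 33.4 and 22.6 FPKM in L1, 22.9, 23.6 and 23.7 in L2, and 96.4, 60.6 and 94.7 in M7 and rose in M7 (log2FC 1.41, SE 0.26, adjusted p = 0.00242 against L1). The other unigene with the same description (TRINITY_DN3261_c0_g1) was at 3.69 to 7.37 FPKM in M7, against 12.5 to 15.25 in seedling libraries, and fell (log2FC -1.31, SE 0.24, adjusted p = 0.00252 against L1, and -1.32, SE 0.24, adjusted p = 0.00179 against L2).

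The prenyl diphosphate synthases split by unigene. GGPPS had 6 unigenes, of which 2 rose and 1 fell in M7 against L1, beside 9.37% and 35.1% of all tested unigenes. The one described as GGPPS 4 (TRINITY_DN13170_c0_g1) had 13.8, 12.8 and 20.4 FPKM in L1, 14.7, 16.2 and 15.3 in L2, and 67.8, 66.6 and 50.9 in M7. All M7 libraries were above all seedling libraries, 3.94-fold in the mean over L1 (log2FC 1.93, SE 0.23, adjusted p = 0.00022) and 4.01-fold over L2 (1.93, SE 0.23, adjusted p = 0.000145). It was no DEG, since its log2 fold changes were under 2.

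TRINITY_DN2966_c0_g4 went the other way and had 21.1, 23.6 and 34.2 FPKM in L1, 13.3, 14.7 and 14.4 in L2, and 2.62, 9.49 and 4.81 in M7. It fell in M7 against L1 (log2FC -2.15, SE 0.38, adjusted p = 0.00192) and against L2 (-1.32, SE 0.38, adjusted p = 0.016), the second call being lost without L2 replicate 2 (adjusted p = 0.0506) and with quantile normalization (adjusted p = 0.49). Its cluster partners TRINITY_DN2966_c0_g3 and TRINITY_DN2966_c0_g5 were not called, but without M7 replicate 1 the first rose in M7 against L1 (log2FC 2.23, adjusted p = 0.00934) and L2 (1.84, adjusted p = 0.0167). The first also rose against both with quantile normalization (log2FC 2.21 and 2.17, adjusted p = 0.00929 and 0.00994). A low unigene (TRINITY_DN29395_c0_g1) was at 0 to 0.59 FPKM for L1, 1.24 to 1.8 for L2 and 1.03 to 2.23 for M7, and rose in both stages against L1, in L2 not with quantile normalization (adjusted p = 0.363). It stayed under 1 FPKM in every L1 library and passed the filter through L2 and M7, which favours both rises. TRINITY_DN16577_c0_g1 had 15.6, 15.5 and 29.1 FPKM in L1, 14.1, 13 and 15.3 in L2, and 3.18, 9.5 and 16.9 in M7, and was not called. Summed over the 6, GGPPS came to 68 ± 20 FPKM for L1, 53.4 ± 3.96 for L2 and 93.8 ± 13.5 for M7 (SD, n = 3).

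Solanesyl diphosphate synthase (SPS, TRINITY_DN2534_c0_g2), which makes the side chain of plastoquinone or ubiquinone, had 6.33, 6.52 and 3.51 FPKM in L1, 7.18, 7.23 and 7.81 in L2, and 8.93, 40.1 and 83.2 in M7. The M7 libraries were all above the seedling ones but ranged over 8.93 to 83.2 FPKM, with replicate 1 the lowest. It was a DEG in M7 against L1 (log2FC 2.37, SE 0.68, adjusted p = 0.0207) and rose against L2 (1.95, SE 0.68, adjusted p = 0.0351). Without L1 replicate 3 or M7 replicate 2 the call against L1 was lost (adjusted p = 0.0692 and 0.0576), and the call against L2 was lost without L1 replicate 1 or 2, any 1 L2 library, or M7 replicate 2 or 3 (adjusted p of 0.052 to 0.0953).

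The 5 unigenes of Rab geranylgeranyl transferase, which serves vesicle traffic by lipid anchoring of Rab proteins, did not move as a group. The escort subunit (component A, TRINITY_DN3024_c0_g4) had 2.27, 1.33 and 3.17 FPKM in L1, 4.31, 4.38 and 6.21 in L2, and 51.9, 33.3 and 32.1 in M7. The 3 stages did not overlap, and M7 was 17.3-fold above L1 and 7.87-fold above L2 in the mean (log2FC 3.63, SE 0.30, adjusted p = 3.26e-05, and 2.73, SE 0.30, adjusted p = 8.3e-05). Its rise in L2 against L1 (0.90, SE 0.30, adjusted p = 0.0415) was lost without L1 replicate 1 or 2, any 1 L2 library or M7 replicate 3 (adjusted p of 0.0515 to 0.134), and with either rescaling (adjusted p = 0.202 and 0.252).

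The catalytic subunits did not rise in M7 against either stage with the values as deposited. A beta subunit (TRINITY_DN1184_c0_g1) had 20.9, 11.1 and 4.77 FPKM in L1, 32.3, 29.6 and 32.2 in L2, and 10, 15.9 and 23.2 in M7. It rose in L2 against L1 (log2FC 1.49, SE 0.48, adjusted p = 0.0371), a call lost without L1 replicate 2 or 3, any 1 L2 library or M7 replicate 2 (adjusted p of 0.0512 to 0.102). With quantile normalization it also rose in M7 against L1 (log2FC 1.16, adjusted p = 0.036). Its cluster partner was not called. The alpha subunit (TRINITY_DN24031_c0_g2) was at 1.16 to 7.79 FPKM in M7 and 16.2 to 17.2 in L2 and fell between them (log2FC -1.78, SE 0.56, adjusted p = 0.0238), a call lost without any 1 L2 library (adjusted p of 0.0644 to 0.0679) and with quantile normalization (adjusted p = 0.146). The fifth unigene (TRINITY_DN25535_c0_g1) had 0.96, 0.95 and 7.1 FPKM in L1, 5.33, 8.34 and 8.19 in L2, and 0 in every M7 library and fell in M7 against both stages. Without L1 replicate 3 it also rose in L2 against L1 (log2FC 2.06, adjusted p = 0.000206). The call against L1 was lost without any 1 L2 or M7 library (adjusted p of 0.0503 to 0.0717) and with quantile normalization (adjusted p = 0.155).

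The cytosolic MVA pathway, the other source of isopentenyl units, was set beside the MEP members as a list of 17 unigenes. Of these, 2 are hydroxymethylglutaryl-CoA lyases, which serve leucine breakdown. The lyase TRINITY_DN30425_c0_g1 reached 1 FPKM only in L2, which fixed its fall in M7 against L2. In M7 against L1, 5 rose and 4 fell, and in M7 against L2, 5 rose and 5 fell, beside 9.37% and 35.1%, and 7.71% and 52.6%, of all tested unigenes. The list summed to 691 to 1002 FPKM for L1, 1023 to 1059 for L2 and 1907 to 2062 for M7, where the MEP members summed to 99.2 to 115 in M7. The difference between both pathways was not tested. A large part of the M7 sum came from the highest unigene of the list, an acetoacetyl-CoA thiolase (TRINITY_DN1177_c0_g1), the entry step. It had 204, 182 and 140.5 FPKM in L1, 386, 380.0 and 367 in L2, and 1268, 938 and 966 in M7 (log2FC 2.59, SE 0.20, adjusted p = 2.29e-05 in M7 against L1). HMG-CoA reductase TRINITY_DN2702_c0_g2 fell (-3.10, adjusted p = 0.000528), so the list did not move as a whole. Among 6 unigenes of isopentenyl diphosphate isomerase and short prenyl synthases, 1 rose and 2 fell in M7 against L1.

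Gibberellin synthesis draws on the same geranylgeranyl diphosphate. A list drawn up for the use of geranylgeranyl units in chlorophyll and gibberellin synthesis held 11 unigenes. Of these, none rose and 7 fell in M7 against L1, where 35.1% of all tested fell. None rose and 8 fell against L2, where 52.6% did. The median log2 fold changes were -1.43 and -1.17, against -0.48 and -1.07 over all tested unigenes. An ent-kaurene oxidase (TRINITY_DN36844_c0_g1) had 16.4, 19.7 and 23.2 FPKM in L1, 23.3, 22.2 and 24.2 in L2, and 1.65, 5.03 and 3.66 in M7 (log2FC -2.29, SE 0.31, adjusted p = 0.000438 in M7 against L1). Here too the M7 libraries lay below all seedling libraries.

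The filter set the edge of the member list. The members just inside, with 3 libraries at 1 FPKM or more, were the CCD4 unigene TRINITY_DN22155_c0_g2 and the CCD1 unigene TRINITY_DN23703_c0_g1. Just outside were 5 unigenes described as a carotenoid isomerase, DXS (2 unigenes), HDS and a geranylgeranyl transferase type-1 subunit. The 2 DXS unigenes averaged 5.15 FPKM in M7, from 1 library, and 2.85 FPKM in L1. These 5 were not tested.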

How the data were processed

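The table of RNA-Seq values covers 9 root libraries, 3 per stage. Per the labels and the study's methods, the authors used FastQC for quality, fastx_toolkit 0.0.14 for trimming, Trinity for assembly without a reference genome and RSEM for quantification, and described unigenes by their best Blastx match. The deposited values are called FPKM here, as the authors do for expression levels, although the methods also name TPM for the quantification. The column totals cannot tell these apart, because the table analysed here holds 65535 unigenes, a part of the assembly. With 2 decimals and no read counts, the values allow no count test and no counting interval, and their depth is unknown. Whether the counting used strand is not given in the sources used here, so overlapping or antisense transcripts cannot be told apart, and unigenes of the same assembly cluster may share reads.

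Unigenes that reached 1 FPKM in 3 or more libraries were fitted as log2(FPKM + 1) by limma 3.58.1 under R 4.3.3 (lmFit, then eBayes with trend), with 1 mean per stage. Benjamini-Hochberg adjustment ran over every tested unigene of a comparison. The test was checked on simulated data. The thresholds of a DEG come from the study's methods, where the FPKM maximum over 30 was read as the highest stage mean. The text names members by the following rule. Every member may be named, with values per library for DEGs, for the highest member of each role and for the 8 largest rises and falls without overlap. In the neighbouring lists it names the highest unigene and the largest changes. Library values of other members are also shown where they help to compare unigenes of 1 enzyme. The members, the gene lists by description and the tests were chosen with earlier results of these data known. Alternatives were pseudocounts of 0.1 and 5, other filters, median ratio rescaling, quantile normalization, no variance trend, a replicate block, a fit of the compared stages alone, the highest single library as DEG threshold, and each library left out in turn. A fit without L1 replicate 3 and M7 replicate 1 together was added after seeing the data.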

Additional observations from a re-analysis of the deposited data

How the results depend on the processing

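Of 63 called log2 fold changes of single members, 41 kept direction and call under every alternative, 22 lost the call under at least 1, and none reversed. Quantile normalization ended 13 of these calls, a fit of the compared stages alone 7, median ratio rescaling 6, the higher pseudocount 5, and leaving out 1 library 3 to 11. Alternatives also added calls, so some members described as not called passed the test under at least 1 of them. The number of members that fell in L2 against L1 was 1 as reported, 2 with a pseudocount of 5, with median ratio rescaling or without a variance trend, and 3 with quantile normalization, in a fit of only the stages compared, or without L1 replicate 3 and M7 replicate 1 together. With 1 library left out it ranged from 1 to 3. Over all tested unigenes, 5170 fell in L2 against L1 as reported and 7169 with quantile normalization. The number of members that rose in M7 against L2 was 7 as reported and 12 with quantile normalization, and ranged from 4 (without L2 replicate 2) to 10 (without M7 replicate 1). Over all tested unigenes, the numbers in these settings were 2691, 7582, 2134 and 3280. The causes were not tested. Member DEGs in M7 against L1 numbered 9 as reported and 12 with the highest single library as threshold. Over all tested unigenes, 492 DEGs rose and 1304 fell as reported, and 591 and 1600 did so with that threshold.

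The replicate numbers were not treated as pairs of plants. The deviations of libraries with the same number correlated at -0.053 to 0.053, which cannot decide whether plants were paired. A fit with a replicate block gave 6 members that rose and 1 that fell in L2 against L1, 8 and 19 in M7 against L1, and 7 and 20 in M7 against L2, and 3 calls were lost. Over all tested unigenes, that fit gave 8772 and 4942, 3026 and 11935, and 2545 and 18170. With 3 libraries per stage and an unknown depth, differences of members under a few FPKM are uncertain, also where they were called.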
